A study of Mus musculus with 3 samples.

Results

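The vascular endothelial growth factor (VEGF) and angiopoietin genes described here are 10 named genes of the 46095 in the gene count table of OCCM-30 cells: the ligands Vegfa, Vegfb, Vegfc and Pgf, the receptors Flt1, Kdr and Flt4, the angiopoietins Angpt1 and Angpt2, and the angiopoietin-like gene Angptl4. They were chosen by symbol, and all 10 symbols were found in the table. This mouse cementoblast line is immortalised and labelled wild type, and cementoblasts form the mineralised cementum that covers the tooth root. The groups were undifferentiated cells (day 0), cells after 7 days in cementogenic medium (day 7) and cells after 14 days in it (day 14), and the study sought coding and non-coding RNAs that differed between these times. Genes and mature miRNAs were each read from 1 library per time point; differences therefore lack a replicate check, and p-values are not given. Cells kept without the medium for 7 or 14 days were not analysed here, so induction and time in culture cannot be told apart.

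Vascular endothelial growth factors are secreted dimers that make endothelial cells divide, migrate and become leaky. Vegfa acts through the tyrosine kinase receptors encoded by Kdr, the main signalling receptor of blood vessels, and Flt1, which binds the ligand tightly but signals weakly and is also made as a soluble decoy. Pgf and Vegfb bind Flt1 but not Kdr, while Vegfc acts mainly through Flt4 on lymphatic vessels. Angpt1 activates the endothelial receptor Tek and keeps vessels stable, Angpt2 competes with it at that receptor, and Angptl4 inhibits lipoprotein lipase. In bone, osteoblasts are a known source of Vegfa, which couples the ingrowth of vessels to mineral formation.

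The gene libraries held 13224690, 14034518 and 14439666 counts on days 0, 7 and 14. CPM (counts scaled by library total and TMM factor) are used below, and a gene is said to have risen or fallen, or to have been called, where it had at least 1 CPM in the higher library, a ratio of at least 2 and a 95% counting interval that excluded 1. The intervals and floors treat each count as an independent molecule and reflect counting error alone. Without molecular identifiers PCR copies cannot be set apart, so even that error may be understated. The labels do not say whether the libraries came from separate cultures. In RNA from whole cultures, fewer cells of a type and less RNA per cell cannot be told apart. The labelled cell type was checked against 11 cementoblast and osteoblast markers, all of which were measured; Sp7, the osteoblast transcription factor, had 138, 3032 and 3441 counts on days 0, 7 and 14, and Ibsp (bone sialoprotein) had 6, 948 and 1190. Of these 11 markers 7 rose and 1 fell on day 7, beside 12.2% and 11.4% of all genes tested. On day 14, 8 rose and 1 fell, beside 9.5% and 8.14%, each against day 0. With library totals and no factor, Phex lost its day 7 call (1.97-fold). The marker that fell at both times was Dmp1, with 27, 7 and 9 counts. Spp1 and Col1a1 were called at neither time.

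Of the 10 genes, 8 had counts and entered the comparisons, while Kdr and Angptl4 had 0 counts in all 3 libraries. For day 7 against day 0, Vegfa, Flt1 and Angpt2 rose and Flt4 and Angpt1 fell. That is 3 of 8 higher and 2 of 8 lower, beside 12.2% and 11.4% of the 14694 genes tested. For day 14 against day 0, Flt1 and Angpt2 rose and Flt4 fell, which is 2 of 8 higher, beside 9.5% of 14593 genes tested, and 1 of 8 lower, beside 8.14%. Between the later time points only Angpt1 was called, 1 of 8, higher on day 14 than on day 7, beside 5.07% of 14404 genes tested, 2.78% higher and 2.3% lower. Vegfb, Vegfc and Pgf were called in none of the 3 comparisons.

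**Figure D1:**
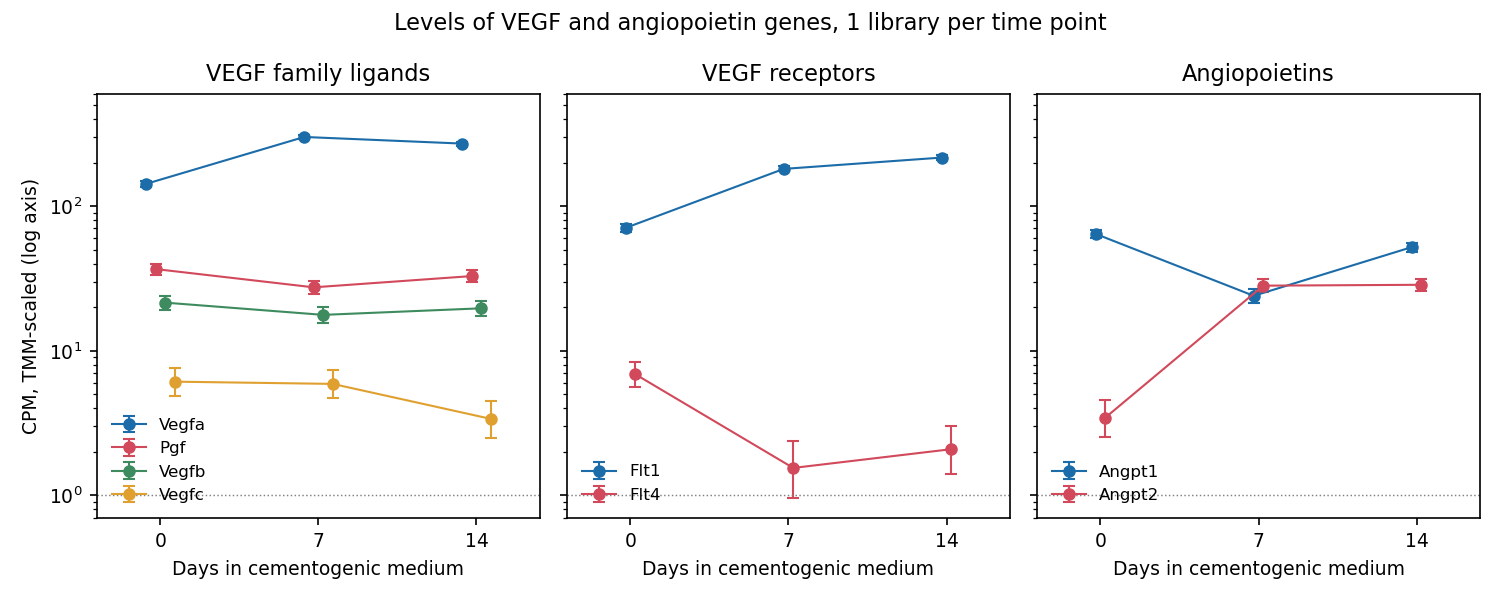
Level of each of the 8 genes with counts (TMM-scaled CPM, log axis) against days in cementogenic medium, in panels for VEGF family ligands, receptors and angiopoietins; points are 1 library each, bars are exact Poisson 95% counting intervals, and the dotted line marks 1 CPM. Vegfa and Flt1 stand above their families on each day, Flt4 is lowest on day 7, and the lines of Angpt1 and Angpt2 meet on day 7.

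The promoters of Vegfa and of the 3 VEGF receptors are shown because these genes went 3 ways: Vegfa and Flt1 rose by day 7, Flt4 fell, and Kdr had no counts. Each is the 250 bases before an annotated RefSeq start (GRCm38.p6, the build of the count table), read 5′ to 3′ on the gene's strand. Capitals mark ACGTG and GCGTG, the cores bound by hypoxia-inducible factors (HIFs), and the GC box GGGCGG, each on either strand. The Vegfa window is at chr17:46032378-46032627, Flt1 at chr5:147726012-147726261 and Kdr at chr5:75978456-75978705, all on the minus strand, and Flt4 is at chr11:49609429-49609678 on the plus strand. The Kdr window precedes a RefSeq start that lies inside the span listed for the gene.
Vegfa: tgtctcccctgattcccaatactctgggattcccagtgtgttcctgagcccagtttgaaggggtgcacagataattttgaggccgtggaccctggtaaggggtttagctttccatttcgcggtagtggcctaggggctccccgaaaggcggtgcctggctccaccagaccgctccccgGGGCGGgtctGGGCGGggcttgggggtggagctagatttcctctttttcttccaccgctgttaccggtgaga
Flt1: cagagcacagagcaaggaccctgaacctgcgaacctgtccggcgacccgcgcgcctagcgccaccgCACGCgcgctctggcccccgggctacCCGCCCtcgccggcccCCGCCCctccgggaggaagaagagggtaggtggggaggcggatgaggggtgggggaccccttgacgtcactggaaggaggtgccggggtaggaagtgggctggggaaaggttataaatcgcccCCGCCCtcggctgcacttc
Kdr: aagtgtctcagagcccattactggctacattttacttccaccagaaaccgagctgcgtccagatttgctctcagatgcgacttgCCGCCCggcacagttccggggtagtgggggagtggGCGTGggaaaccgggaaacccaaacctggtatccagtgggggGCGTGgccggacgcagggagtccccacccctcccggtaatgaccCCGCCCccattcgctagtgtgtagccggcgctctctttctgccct
Flt4: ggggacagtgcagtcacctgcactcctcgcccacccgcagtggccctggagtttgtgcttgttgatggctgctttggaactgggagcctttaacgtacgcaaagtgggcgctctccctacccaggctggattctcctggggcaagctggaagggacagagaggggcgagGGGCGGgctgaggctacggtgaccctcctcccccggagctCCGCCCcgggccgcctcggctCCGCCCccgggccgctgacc

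The Vegfa window held 2 GC boxes, starting 72 and 62 bases before the start, and 0 HIF cores. The Flt1 window held 1 GCGTG core, 3 GC boxes and a TATAAA box that began 31 bases before the start. For Kdr the search found 2 GCGTG cores and 2 GC boxes, and for Flt4 3 GC boxes and 0 HIF cores. Another RefSeq start inside Vegfa had 1 ACGTG and 1 GCGTG core in its window. That window, at chr17:46025164-46025413, itself lies within the transcribed gene, and its use as a promoter was not tested. Of 32851 mouse promoter windows of this length, 38.6% held at least 1 of the HIF cores, 32.7% a GC box and 12.4% TATAAA. A match to any of these is therefore not rare. These shares count matches anywhere in the window on either strand, so they do not apply to a match at a set position. The well described hypoxia response element of Vegfa lies farther upstream than the Vegfa window shown. A window was found for 7 of the 10 genes; those of Angpt1, Angpt2 and Angptl4 are not shown.

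Vegfa, the main angiogenic ligand (chromosome 17, 46016993 to 46032377, minus strand), had 2027, 4073 and 3756 counts on days 0, 7 and 14, or 142, 300.4 and 270.3 CPM. It was thus lowest before induction. Vegfa rose 2.11-fold (1.999 to 2.23) on day 7 against day 0, and 81.3% of the genes tested had a smaller absolute log2 ratio. The ratio on day 14 was 1.90 (1.80 to 2.004), below the 2-fold rule, and that of day 14 against day 7 was 0.900 (0.861 to 0.941). The day 7 call depends on the scaling: with library totals and no factor the ratio was 1.89 (1.79 to 1.998), which is not called.

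Pgf, placental growth factor (chromosome 12, 85166637 to 85177785, minus strand), had 522, 372 and 456 counts on days 0, 7 and 14, or 36.7, 27.4 and 32.8 CPM. Its ratio to day 0 was 0.748 (0.653 to 0.856) on day 7 and 0.895 (0.787 to 1.02) on day 14, so it stayed within 2-fold. Vegfb, a ligand best known from heart and muscle (chromosome 19, 6982472 to 6987651, minus strand), had 306, 240 and 273 counts, or 21.5, 17.7 and 19.6 CPM. It overlaps an lncRNA gene of the other strand, Gm41803, with 4, 24 and 19 counts. The Vegfb ratio was 0.823 (0.692 to 0.978) on day 7 and 0.914 (0.773 to 1.08) on day 14. Both genes had their lowest value on day 7, the day on which Vegfa was highest, but neither was called. For Vegfb days 14 and 7 could not be separated at this depth, with a ratio of 1.11 (0.930 to 1.33).

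Vegfc, the lymphatic growth factor (chromosome 8, 54077532 to 54186454, plus strand), had 87, 80 and 47 counts on days 0, 7 and 14, or 6.11, 5.90 and 3.38 CPM. Days 0 and 7 could not be separated at this depth, with a ratio of 0.965 (0.703 to 1.32), and day 14 had the lowest value. The ratio of day 14 against day 0 was 0.553 (0.379 to 0.798), which missed the 2-fold rule; with library totals and no factor it was 0.495 (0.339 to 0.713), which passes it. Against day 7 the ratio was 0.573 (0.391 to 0.832). Vegfd, a ligand of the same lymphatic receptor that is not among the 10 genes, had 179, 163 and 152 counts and was not called.

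Flt1, the receptor shared by Vegfa, Vegfb and Pgf (VEGF receptor 1; chromosome 5, 147562196 to 147726005, minus strand), had 1006, 2450 and 3007 counts on days 0, 7 and 14, or 70.7, 181 and 216 CPM. It rose 2.56-fold (2.37 to 2.75) on day 7 and 3.06-fold (2.85 to 3.29) on day 14. The day 14 value was 1.20 times that of day 7 (1.14 to 1.26), within 2-fold. Gene counts do not separate the membrane form of Flt1 from its soluble decoy.

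Flt4, the receptor of Vegfc (VEGF receptor 3; chromosome 11, 49609679 to 49652739, plus strand), had 98, 21 and 29 counts on days 0, 7 and 14, or 6.89, 1.55 and 2.09 CPM. It was 4.45-fold lower (2.75 to 7.50) on day 7 and 3.30-fold lower (2.16 to 5.18) on day 14, each against day 0. Days 14 and 7 could not be separated at this depth, with a ratio of 1.35 (0.742 to 2.49). Kdr, VEGF receptor 2 (chromosome 5, 75933265 to 75979074, minus strand), had 0, 0 and 0 counts, which at a floor of 3 counts per library allows up to 0.211, 0.221 and 0.216 CPM. An lncRNA gene that overlaps Kdr on the other strand, Gm32727, also had 0 counts.

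The neuropilins are co-receptors that bind VEGF beside these kinases. Nrp1, which enhances Vegfa signalling, had 602, 1941 and 2656 counts on days 0, 7 and 14. It rose 3.38-fold (3.09 to 3.71) on day 7 and 4.52-fold (4.13 to 4.94) on day 14. Nrp2, the neuropilin that also pairs with Flt4, had 4906, 6086 and 5913 counts, with ratios to day 0 of 1.30 (1.25 to 1.35) and 1.23 (1.19 to 1.28) that were not called. Of 7 further ligands and receptors of these families, 4 were measured at a mean of at least 1 CPM. Of these 4, Nrp1 and Angpt4 rose at both later times, while 0 fell. Of all genes tested 12.2% were called higher on day 7 and 9.5% on day 14. The median log2 ratio of the 4 was 0.80 on day 7 and 0.74 on day 14. The angiopoietin receptor Tek had 0, 2 and 0 counts, its partner Tie1 had 1, 0 and 0, and Ptprb, the phosphatase that opposes Tek, had 2, 0 and 0.

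**Figure D2:**
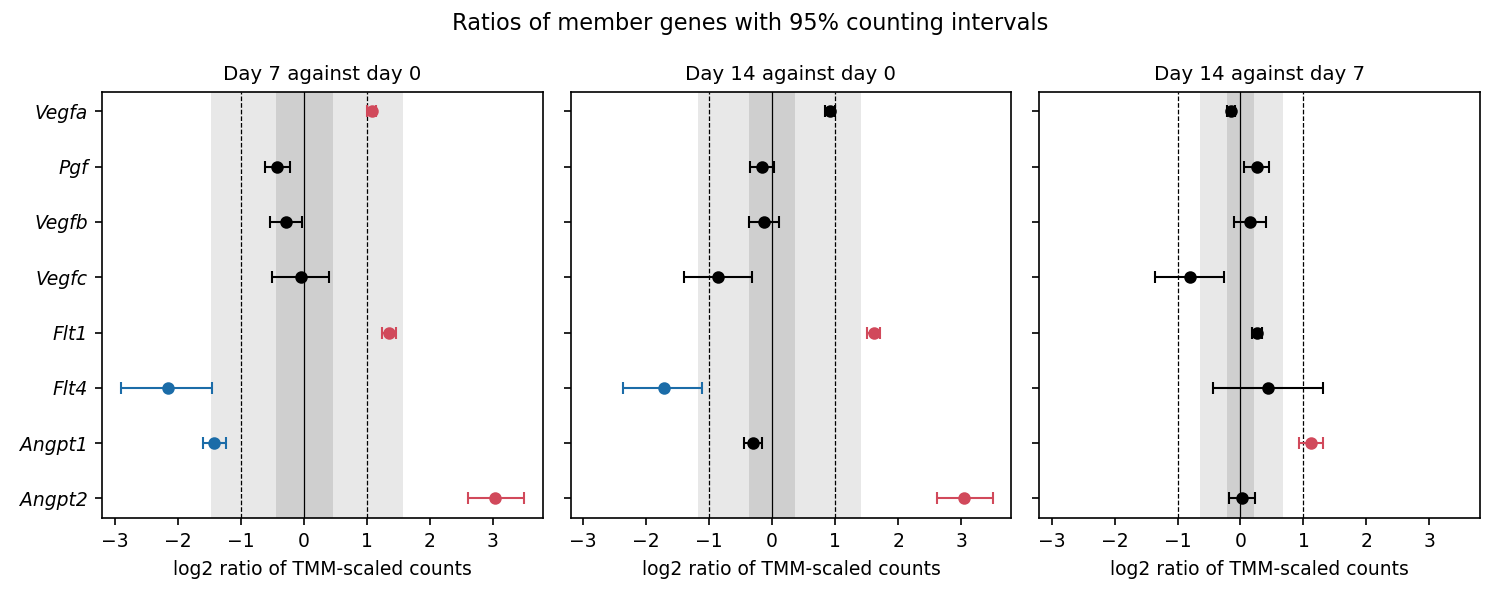
Ratio of TMM-scaled counts (log2 axis) for the 8 genes with counts in the 3 comparisons; points are ratios, bars exact 95% counting intervals, red and blue mark genes called higher and lower and black those not called. Dashed lines mark 2-fold, and the dark and light grey bands hold the middle 50% and 90% of all genes tested (log2 ratios with a pseudocount of 0.5 CPM); Angpt2 lies right of both bands on days 7 and 14, and Angpt1 is the 1 coloured point for day 14 against day 7.

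Angpt1, the vessel-stabilising ligand of Tek (chromosome 15, 42424667 to 42676977, minus strand), had 913, 325 and 723 counts on days 0, 7 and 14, or 64.2, 24.0 and 52.0 CPM. The day 7 value was the lowest. Angpt1 fell on day 7, by 2.68-fold (2.36 to 3.05) against day 0, and was 2.17-fold higher (1.90 to 2.48) on day 14 than on day 7. Its ratio of day 14 against day 0 was 0.811 (0.735 to 0.895), not called. Of the genes tested for day 14 against day 7, 97.9% had a smaller absolute log2 ratio than Angpt1, the same share that had a smaller one than Angpt2 for day 7 against day 0.

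The lncRNA gene Gm41313, which lies inside Angpt1 on the same strand (chromosome 15, 42631048 to 42666066), had 474, 179 and 382 counts, or 33.3, 13.2 and 27.5 CPM. Its log2 ratios to day 0, -1.30 on day 7 and -0.27 on day 14, were close to those of Angpt1, -1.40 and -0.30. Reads of the 2 genes could be shared, so the Angpt1 values are uncertain to that extent.

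Angpt2, the context-dependent antagonist of Angpt1 (chromosome 8, 18690263 to 18741562, minus strand), had 49, 382 and 397 counts on days 0, 7 and 14, or 3.44, 28.2 and 28.6 CPM. The day 0 value stood apart from both later ones, which were alike. Angpt2 rose 8.18-fold (6.07 to 11.3) on day 7 and 8.30-fold (6.16 to 11.4) on day 14, and the ratio between the later days was 1.01 (0.879 to 1.17). It lies within Mcph1, a gene of chromosome condensation on the other strand, which had 1152, 1027 and 979 counts. Whether the counting used strand is not known here, and the part of Mcph1 reads in the Angpt2 values was not tested. Angpt4, another ligand of Tek, had 61, 144 and 144 counts and rose 2.48-fold (1.82 to 3.40) on day 7 and 2.42-fold (1.78 to 3.32) on day 14.

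Angptl4 had 0 counts in each library, but this value cannot be read as absence. The table places it on a scaffold outside the assembled chromosomes, with a listed span of 73589 bases, whereas RefSeq places it on chromosome 17 at 33774900 to 33781575, a span of 6676 bases. Of the 157 genes on that scaffold, 54 had a count. Of 980 protein-coding genes on such scaffolds, 51.2% were at 0 in every library, against 30.1% of 21097 protein-coding genes on chromosomes. Rab11b, which overlaps Angptl4 on the same strand of that scaffold, had 463, 298 and 350 counts. The 0 of Angptl4 may therefore be an undercount, and its level is uncertain here. Of 6 other angiopoietin-like genes, 3 were at 0 throughout and 2 were measured. Angptl7, among those at 0, is also listed on a scaffold, so its 0 cannot be read as absence. Angptl2, a secreted factor of mesenchymal cells, had 1745, 2049 and 2183 counts on days 0, 7 and 14 and was not called. Angptl6 had 46, 21 and 13 counts and fell 2.09-fold (1.22 to 3.68) on day 7 and 3.46-fold (1.84 to 6.97) on day 14. The median log2 ratio of these 2 genes was -0.28 on day 7 and -0.51 on day 14.

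Levels of different genes were compared as deposited FPKM, which divides counts by gene length and library total. Vegfa led on each day with 43.4, 82.2 and 73.7 FPKM on days 0, 7 and 14, above 89.3%, 95.8% and 95.4% of detected protein-coding genes. On day 0 it was followed by Pgf (18.8 FPKM), Vegfb (18.0) and Angpt1 (16.0), neighbours whose counting intervals overlapped, then by Flt1 (12.1), Vegfc (3.50), and Flt4 (1.27) and Angpt2 (1.04), which also overlapped. On day 7 Flt1 was next after Vegfa with 27.8 FPKM, ahead of Vegfb (13.3) and Pgf (12.6), which overlapped, Angpt2 (7.65), Angpt1 (5.37), Vegfc (3.03) and Flt4 (0.256). The order of day 14 was the same for Vegfa and Flt1 (33.2 FPKM), then came Pgf (15.1) and Vegfb (14.7), which overlapped, Angpt1 (11.6), Angpt2 (7.72), Vegfc (1.73) and Flt4 (0.344). Flt1 thus stood below 4 other genes on day 0 and below Vegfa alone on days 7 and 14, and Angpt2 ranked above Angpt1 on day 7 but not on days 0 and 14.

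Ratios of genes within a library do not depend on how libraries are scaled. Per base of gene length, Angpt2 stood at 0.0651 of Angpt1 (0.0478 to 0.0868) on day 0, at 1.42 (1.23 to 1.66) on day 7 and at 0.666 (0.588 to 0.753) on day 14. This ratio was 21.9-fold higher (15.7 to 30.9) on day 7 and 10.2-fold higher (7.45 to 14.3) on day 14 than on day 0, and 2.14-fold lower (1.76 to 2.61) on day 14 than on day 7. With Angpt4 counted in, Angpt1 made up 79.8%, 27.2% and 44.9% of the summed angiopoietin FPKM on days 0, 7 and 14, and Angpt2 5.19%, 38.8% and 29.9%. The sum itself, 20.1, 19.7 and 25.8 FPKM, varied less than its parts.

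Among 5 VEGF family ligands, Vegfa held 48.3%, 70.6% and 67.0% of the summed FPKM on days 0, 7 and 14. Pgf held 20.9%, 10.9% and 13.7% of it, and its ratio to Vegfa per base was 2.82-fold lower (2.44 to 3.26) on day 7 and 2.12-fold lower (1.85 to 2.44) on day 14 than on day 0. The ratio of Vegfb to Vegfa was 2.56-fold lower (2.14 to 3.07) on day 7 and 2.08-fold lower (1.74 to 2.48) on day 14. The ratio of Vegfc to Vegfa was 2.19-fold lower (1.59 to 3.01) on day 7 and 3.43-fold lower (2.37 to 5.02) on day 14. So each of these 3 ligands lost ground to Vegfa within the library, although none was called by itself.

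On the receptor side, Flt4 per base stood at 0.105, 0.00922 and 0.0104 of Flt1 on days 0, 7 and 14. This ratio was 11.4-fold lower (6.99 to 19.3) on day 7 and 10.1-fold lower (6.57 to 16.0) on day 14 than on day 0. Flt1 relative to Vegfa was 0.279, 0.338 and 0.450 on days 0, 7 and 14, a change of 1.21-fold (1.11 to 1.33) on day 7 and 1.61-fold (1.47 to 1.77) on day 14. Nrp1 relative to Nrp2 was 0.140, 0.363 and 0.511. Of the summed FPKM of receptors and neuropilins, Nrp2 held 72.3%, 55.6% and 48.5% on days 0, 7 and 14, Nrp1 10.1%, 20.2% and 24.8%, and Flt1 15.9%, 24.0% and 26.5%.

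**Figure D3:**
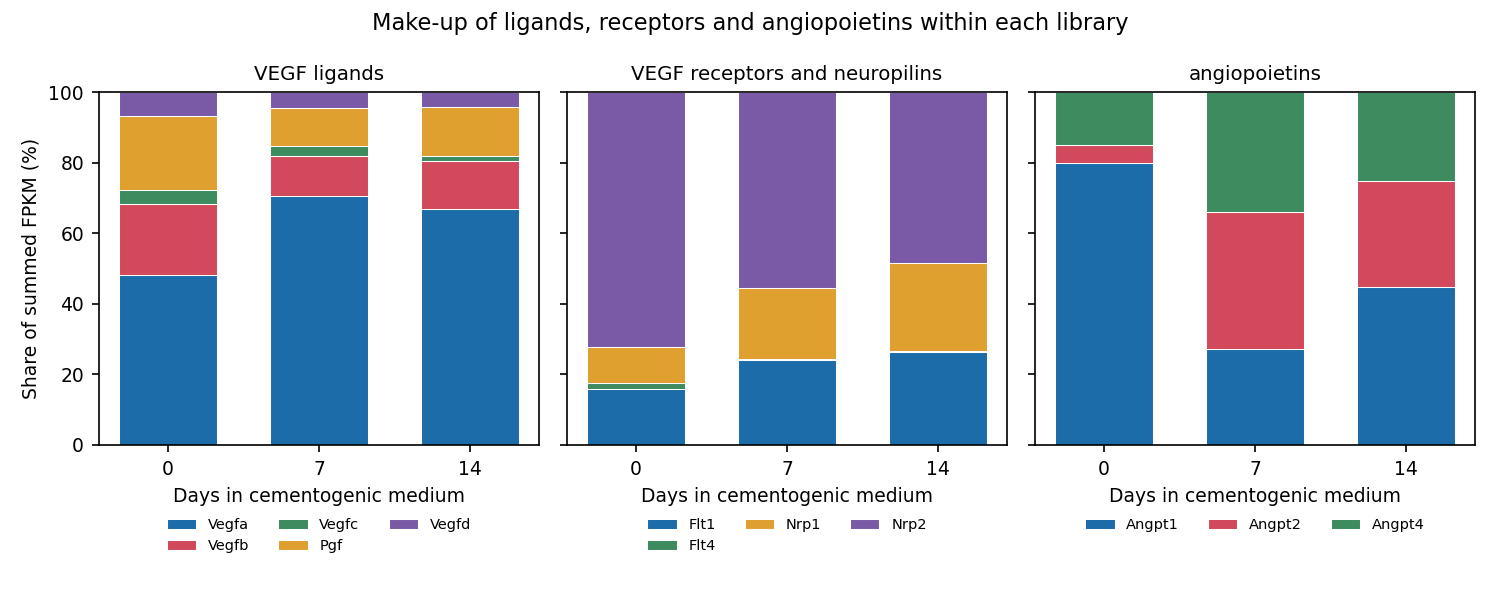
Share of summed FPKM (%) held by each gene among VEGF family ligands, among receptors and neuropilins, and among angiopoietins, by days in cementogenic medium, 1 library per bar; Kdr, at 0, takes no share. The Vegfa segment is largest in each ligand bar, the Nrp2 segment shrinks to 48.5% on day 14, and the Angpt2 segment is 5.19% on day 0 and 38.8% on day 7.

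Genes that act on or with these ligands and receptors were taken from lists of known function, chosen with earlier results of these data known. As a description and not a test, each list is given by its calls and its median log2 ratio. Over all 14037 genes with a mean of at least 1 CPM that median was 0.00 in each comparison with day 0. The calls of each list below stand beside the shares of all genes tested. These were 12.2% higher and 11.4% lower on day 7, and 9.5% and 8.14% on day 14, against day 0. A listed gene is said to be measured where its mean over the libraries was at least 1 CPM, and counts and medians of a list are over these genes; this limit can leave out weak genes that fell. Vegfc is secreted as a precursor and cut by proteases, and of 11 genes of this processing 7 were measured. Furin, the convertase that makes the first cut, had 2440, 6210 and 5911 counts on days 0, 7 and 14, and rose 2.67-fold (2.55 to 2.80) and 2.48-fold (2.37 to 2.60). Ccbe1, the scaffold of the final cut, had 3, 42 and 28 counts and also rose at both times. Adamts14, a protease able to make that cut, had 321, 36 and 20 counts and fell 8.50-fold (6.01 to 12.3) and 15.7-fold (9.98 to 26.0). Plau (urokinase, a plasminogen activator) had 177, 41 and 55 counts and fell 4.11-fold (2.91 to 5.93) and 3.14-fold (2.31 to 4.33). Of the 7 measured genes, 2 rose and 2 fell at each later time, with median log2 ratios of -0.14 on day 7 and -0.15 on day 14. Pcsk6, another convertase gene, lay under that mean with 19, 7 and 4 counts, and fell 2.59-fold (1.04 to 7.28) and 4.64-fold (1.54 to 18.7).

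Of 12 genes of VEGF receptor signalling and feedback, 8 were measured, 1 rose and 1 fell at each later time. Of all genes tested 12.2% were higher and 11.4% lower on day 7, and 9.5% and 8.14% on day 14. Hlx, a homeobox gene known to respond to VEGF in endothelial cells, had 182, 979 and 797 counts on days 0, 7 and 14 and rose 5.65-fold (4.81 to 6.65) and 4.48-fold (3.81 to 5.30). Shb, an adaptor of receptor 2, had 245, 86 and 83 counts and fell 2.71-fold (2.12 to 3.51) and 2.88-fold (2.24 to 3.74). Plcg1, the phospholipase used by these receptors, had 1840, 2114 and 2270 counts and was not called. The median log2 ratio was 0.18 on day 7 and 0.21 on day 14.

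Vegfa, Flt1 and Angpt2 are known to respond to low oxygen through HIFs. Of 11 HIF subunits and regulators, all measured, Hif3a (0, 3082 and 2173 counts) and Egln3 rose and Arnt2 (83, 6 and 18 counts) fell at both later times, with median log2 ratios of 0.54 on day 7 and 0.37 on day 14. Hif1a, a subunit known to be regulated mainly through the stability of its protein, had 3597, 3310 and 4353 counts on days 0, 7 and 14 and was not called. Egln3, an oxygen sensor that HIFs themselves induce, had 338, 1239 and 901 counts and rose 3.85-fold (3.41 to 4.35) and 2.73-fold (2.41 to 3.10). Of 20 hypoxia-induced genes 19 were measured. Of these 19, 11 rose and 0 fell on day 7, beside 12.2% and 11.4% of all genes tested. On day 14, 9 rose and 0 fell, beside 9.5% and 8.14%. The median log2 ratio of this list was 1.03 on day 7 and 0.99 on day 14, beside 1.07 and 0.92 for Vegfa. Aldoa, a glycolytic enzyme, had 7679, 16871 and 15330 counts and rose 2.31-fold (2.24 to 2.37) and 2.04-fold (1.99 to 2.10). With DESeq2 size factors 10 rose on day 7 and 9 on day 14, and with library totals 9 and 7. Pgk1 lost its day 7 call with both and Pdk1 with library totals, which also ended the day 14 calls of Aldoa (1.83-fold) and Ddit4 (1.91-fold). On day 14 against day 7 the median was -0.26, and Car9, a carbonic anhydrase with 50, 9757 and 4618 counts, was the 1 gene of the list called, lower on day 14. Oxygen was not measured, and its part in these values was not tested.

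Of 17 angiogenesis inhibitors, 12 were measured, and of these 6 rose and 0 fell at each later time. Of all genes tested 12.2% were higher and 11.4% lower on day 7, and 9.5% and 8.14% on day 14. The list had median log2 ratios of 0.93 on day 7 and 0.89 on day 14. Adamts1, a protease that binds Vegfa and inhibits vessel growth, had 343, 12849 and 8251 counts on days 0, 7 and 14 and rose 39.3-fold (35.3 to 43.9) and 24.6-fold (22.1 to 27.5). Col18a1, the source of endostatin, had 275, 1260 and 1004 counts and rose 4.81-fold (4.22 to 5.50) and 3.74-fold (3.27 to 4.29). Thbs2, a thrombospondin, had 1830, 5217 and 5710 counts and rose 2.99-fold (2.84 to 3.16) and 3.20-fold (3.03 to 3.37). Serpinf1 (pigment epithelium-derived factor) and Sparc rose as well. So did the collagen gene Col4a1, on 4, 30 and 17 counts, with wide intervals (2.77 to 30.8 on day 7 and 1.42 to 17.8 on day 14). Spry4, a feedback inhibitor of growth factor signalling under that mean, had 23, 9 and 4 counts and fell 2.44-fold (1.09 to 5.98) and 5.61-fold (1.92 to 22.3). The day 7 count depends on the scaling: 6 rose and 1 fell (Sulf1) with DESeq2 size factors, and 5 rose and 2 fell (Sulf1 and Vash2) with library totals. Serpinf1 lost its day 7 call with library totals (1.99-fold). Several of these genes are also known products of osteoblasts.

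Of 20 other angiogenic ligands, a list that also holds the vessel repellent Sema3e, 16 were measured. Its calls and median therefore give no direction for vessel growth. Of these 16, 6 rose and 6 fell on day 7, beside 12.2% and 11.4% of all genes tested. On day 14, 6 rose and 4 fell, beside 9.5% and 8.14%. Apln, the ligand of an endothelial receptor, had 811, 2648 and 3152 counts on days 0, 7 and 14 and rose 3.43-fold (3.17 to 3.71) and 3.98-fold (3.68 to 4.30). Cyr61, a matrix protein that binds integrins, had 318, 3420 and 1949 counts and rose 11.3-fold (10.1 to 12.7) and 6.28-fold (5.57 to 7.09). Cxcl12, a chemokine, had 802, 126 and 181 counts and fell 6.07-fold (5.02 to 7.38) and 4.33-fold (3.68 to 5.11). Sema3e, a repellent of growing vessels, had 624, 34 and 97 counts and fell 17.5-fold (12.4 to 25.5) and 6.28-fold (5.06 to 7.86). Fgf2 had 2, 33 and 22 counts, and its ratio on day 7, 17.3, had a wide interval (4.43 to 149); it too is listed on a scaffold. The median log2 ratio was 0.42 on day 7 and -0.02 on day 14.

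Around Angptl4, 9 of 15 genes of lipases and peroxisome proliferator-activated receptors were measured. Pdk4, a kinase that curbs glucose oxidation and is induced by these receptors, had 985, 6627 and 4618 counts on days 0, 7 and 14 and rose 7.06-fold (6.60 to 7.56) and 4.80-fold (4.48 to 5.15). Ppard fell at both later times and the endothelial lipase gene Lipg on day 14, while Lpl, the target of Angptl4, had 0, 0 and 1 counts. The median log2 ratio was -0.19 at each later time.

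**Figure D4:**
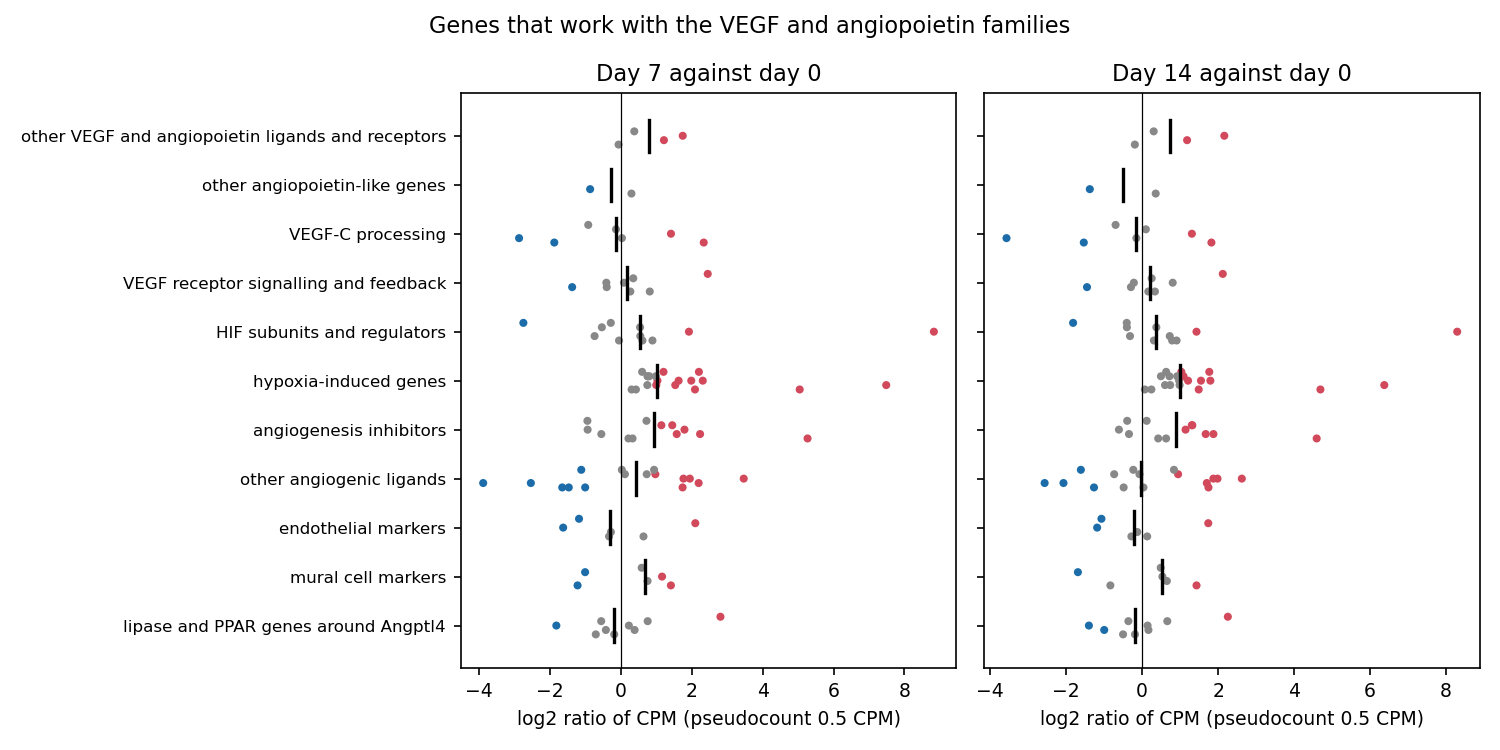
Log2 ratio of CPM (pseudocount 0.5 CPM) of each measured gene in 11 lists, for day 7 and day 14 against day 0; red and blue points were called higher and lower, grey points were not called, black bars are list medians. With this scaling and a mean of at least 1 CPM, hypoxia-induced genes and angiogenesis inhibitors have 0 blue points, and other angiogenic ligands have red and blue ones.

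Markers of endothelial cells, the cells that normally answer these ligands, ranged widely. Of 18 such markers, 9 were at 0 in every library, among them Cdh5 (VE-cadherin) and Emcn (endomucin), 6 were measured, and the list summed to 59.7, 56.7 and 66.8 CPM on days 0, 7 and 14. Most of that sum was Eng (endoglin), at 44.5, 35.3 and 48.8 CPM, a gene that mesenchymal cells also express. Vwf (von Willebrand factor) had 41, 31 and 36 counts, or 2.88, 2.29 and 2.59 CPM, and Pecam1 had 19, 32 and 14 counts. Erg and Cldn5, also at 0, are listed on scaffolds, so their 0 cannot be read as absence. Plvap rose at both later times, with 41, 190 and 150 counts, while Egfl7 (44, 9 and 15 counts) and Ecscr (66, 24 and 27 counts) fell, and the median log2 ratio of the list was -0.31 on day 7 and -0.21 on day 14. Of 6 lymphatic markers 5 were at 0, and Pdpn, which is listed on a scaffold, had 17, 1 and 1 counts. Of 8 blood cell markers 4 were at 0 and the sum was 4.15, 3.02 and 2.45 CPM, with 1, 0 and 0 counts of Ptprc. Pf4, among those at 0, is listed on a scaffold too.

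Pericytes and smooth muscle cells are a usual source of Angpt1, and 10 mural markers summed to 465, 518 and 489 CPM on days 0, 7 and 14. Of the 6 measured, Acta2 and Des rose and Pdgfrb and Mcam fell on day 7, while Des rose and Mcam fell on day 14, with median log2 ratios of 0.67 and 0.51. Rgs5 had 0, 0 and 1 counts and Kcnj8 had 0 in each library. Other mural markers were well covered: Notch3 had 2612, 3747 and 3580 counts and Cspg4 had 376, 609 and 580, and neither was called. Pdgfrb, which many mesenchymal cells share, had 2803, 1143 and 1529 counts on days 0, 7 and 14 and fell 2.34-fold (2.18 to 2.51) on day 7, the day on which Angpt1 was lowest. The part of mural cells in the Angpt1 values was not tested.

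Genes most like Angpt2, Flt1 and Angpt1, the 3 with the largest changes at 10 CPM or more, were sought among 10338 genes of at least 10 CPM by the distance between their 2 log2 ratios to day 0. Nearest to Angpt2 (2.86 and 2.88) were Grb10, Dlx3, Hey1, Hectd2 and Sepp1, and 16 genes lay within 0.25 of it. Grb10, an adaptor of growth factor receptors, had 114, 816 and 854 counts on days 0, 7 and 14, and Dlx3, a homeobox gene of bone and tooth, had 16, 156 and 152. Nearest to Flt1 (1.35 and 1.61) were Id2, Matn2, Clip4, Atoh8 and Kitl, with 50 genes within 0.25; Id2, an inhibitor of helix-loop-helix factors, had 346, 852 and 1054 counts. Nearest to Angpt1 (-1.40 and -0.30) were Sms, Masp1, Gm41313, Irak4 and Gm10282, with 24 genes within 0.25. Sms (spermine synthase) had 304, 106 and 231 counts. Gm41313 lies inside Angpt1 on the same strand, so shared reads could make it look alike. Likeness here rests on 3 libraries.

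Mature miRNAs tied to these genes were read from the miRNA libraries of 34855863, 28729986 and 20443074 counts on days 0, 7 and 14. They are shown because miR-126a belongs to endothelial cells, miR-210 is induced by hypoxia, and the others are known to act on Vegfa mRNA. Sequences are RefSeq mature miRNAs (GRCm38.p6), 5′ to 3′, with the seed (bases 2 to 8) in capitals.
miR-126a-3p: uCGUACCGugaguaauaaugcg
miR-210-3p: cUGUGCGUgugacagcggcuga
miR-16-5p: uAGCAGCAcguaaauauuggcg
miR-15a-5p: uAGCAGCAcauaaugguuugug
miR-15b-5p: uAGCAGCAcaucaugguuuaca
miR-20a-5p: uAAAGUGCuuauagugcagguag
miR-93-5p: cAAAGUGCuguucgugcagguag

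The 3 miRNAs of the miR-15 and miR-16 family share the seed AGCAGCA, and miR-20a-5p and miR-93-5p share AAAGUGC. The miRNA TMM factors were 0.864, 1.46 and 0.795 on days 0, 7 and 14, a wider spread than for genes, so each value is given by library total and then TMM-scaled. miR-210-3p had 9331, 1480 and 15711 CPM by library total on days 0, 7 and 14, and 10803, 1017 and 19759 CPM with TMM. It was lowest on day 7 on both scales, when 11 hypoxia-induced genes were called higher than on day 0. It was highest on day 14 on both scales, when 9 were. Each value rests on 1 miRNA library, and a link between this miRNA and those genes was not tested. miR-16-5p had 4425, 2928 and 5137 CPM by total and 5124, 2011 and 6460 CPM with TMM, and was also lowest on day 7. miR-15a-5p, with 156, 85.2 and 147 CPM by total and 181, 58.5 and 185 CPM with TMM, shared that low. miR-15b-5p had 833, 814 and 769 CPM by total but 965, 559 and 967 CPM with TMM, so its order depends on the scaling. For miR-20a-5p the values were 1131, 1928 and 892 CPM by total and 1310, 1324 and 1121 CPM with TMM. For miR-93-5p they were 6127, 6449 and 4889 CPM by total and 7093, 4429 and 6149 CPM with TMM, and here the scaling turned day 7 from the highest value to the lowest. miR-199a-5p, known to act on Hif1a mRNA, had 34144, 18501 and 38770 CPM by total and 39530, 12707 and 48760 CPM with TMM, again lowest on day 7.

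miR-126a-3p lies within Egfl7 (chromosome 2, 26591402 to 26591423). It had 53.8, 179 and 28.8 CPM by library total on days 0, 7 and 14, and 62.3, 123 and 36.2 CPM with TMM, so it was highest on day 7 on both scales. The other arm, miR-126a-5p, had 84, 135 and 41 counts. Egfl7 itself had 3.09, 0.664 and 1.08 CPM and was lowest on that day. The miRNA and gene tables come from separate libraries of each time point, and the source of the miRNA was not tested.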

How the data were processed

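Total RNA of OCCM-30 cells was sequenced with 1 gene library and 1 miRNA library per time point, and columns were assigned to times by their names and the sample titles. The gene table holds raw counts of 46095 genes and the FPKM values deposited by the authors; for the 8 genes with counts, all 24 deposited FPKM values equalled count over gene length and library total within 0.1%. Mature miRNA counts of 1976 names were deposited by the authors too. The mm10 build and the tools DESeq, HTSeq, Cufflinks, TopHat and HISAT2 were used, per the submitters' processing notes; versions, roles and the strand setting were not stated. Locations are those of the deposited table, counted from 1.

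TMM scaling over all genes (edgeR 4.0.16, R 4.3.3) gave factors of 1.08, 0.966 and 0.962 for days 0, 7 and 14. Ratios carry the exact Clopper-Pearson 95% interval conditional on the summed counts; log2 ratios include a pseudocount of 0.5 CPM, and counts of 0 took a floor of 3 per library. Levels carry exact Poisson intervals. With 1 library per group no replicated test or p-value was possible.

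The 10 genes, the lists, the miRNAs and the rules were chosen with earlier results of these data known. Named from each list were called genes in lists with 5 or fewer, up to 4 genes by FPKM and up to 4 by log2 ratio. Overlapping genes and the 5 genes nearest in pattern were named too. Lpl, Rgs5, Kcnj8, Pdpn, Ptprc, Ptprb, Pcsk6, Spry4, Sulf1, Vash2 and Pgk1 were named after their values were seen. So were Pdk1, Ddit4, Vwf, Emcn, Erg, Cldn5, Dmp1, Cspg4, Angptl7, Pf4, Phex, Plat and Ang. Promoter and miRNA sequences are from RefSeq (GRCm38.p6). Counts of 46095 genes were simulated with counting error only, and the changed genes had a mean of at least 5 CPM. The rule recovered 100%, 96% and 100% of 50 genes changed 2.5-fold in the comparisons day 7 against day 0, day 14 against day 0 and day 14 against day 7, and 0% of 50 changed 1.5-fold. It also called 84 of 14116, 76 of 14125 and 71 of 14156 unchanged genes tested. Variation between cultures and changed genes of lower level were not simulated. Alternatives were DESeq2 1.42.0 size factors, library totals, totals that omit mitochondrial and small structured RNA genes, other minimum levels, thresholds and pseudocounts, and FPKM. Other tools were matplotlib 3.10.9, scipy 1.17.1, pandas 2.3.3 and numpy 2.4.6 under Python 3.11.15.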

Additional observations from a re-analysis of the deposited data

How the results depend on the processing

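No paired analysis was possible because each time point had 1 library; each comparison rests on 1 library per side, so neither could be left out. Of 144 log2 ratios of the 8 genes under 6 other scalings, pseudocounts or units, 122 stayed within counting error, 22 moved beyond it and 0 changed direction. With DESeq2 size factors the same genes were called in each comparison. With library totals the median gene stood at -0.15 on day 7 and -0.16 on day 14 in log2 terms, and Vegfa lost its day 7 call while Vegfc gained one on day 14. They left 1476 genes higher and 2121 lower on day 7 (41.0% higher, against 51.7% with TMM), and 1139 and 1541 on day 14 (42.5%, against 53.9%). Among listed genes, library totals also added calls lower than day 0 for Plat on day 7 and for Ang and Pdgfrb on day 14.

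The size threshold moved counts most. At 1.5-fold, 5901, 4514 and 1700 genes were called for day 7 against day 0, day 14 against day 0 and day 14 against day 7; at 4-fold 1355, 982 and 137; and with a minimum of 5 CPM 2112, 1443 and 182. A 2-fold rule on the ratio with a pseudocount, added after seeing the data, called 425 genes for day 14 against day 7. At 4-fold 2 of the 8 genes stayed called on day 7 (Flt4 and Angpt2), 1 on day 14 (Angpt2) and 0 between the later days; at 1.5-fold 5 were called on day 14, with Vegfa and Vegfc added, and 2 between the later days, with Vegfc added. Low counts limit Flt4, Vegfc, Ccbe1, Fgf2 and Col4a1, whose intervals are wide, and no value covers variation between cultures.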
